A study of Homo sapiens with 12 samples.

Results

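RAS, RAF, MEK and ERK proteins form the core relay of the mitogen-activated protein kinase (MAPK) pathway, and 7 of their genes are described here: the RAS GTPases NRAS and HRAS, the RAF kinases BRAF and ARAF, the MEK kinases MAP2K1 (MEK1) and MAP2K2 (MEK2), and the ERK kinase MAPK3 (ERK1). They were chosen by gene symbol from the 23273 genes listed for each of 2 human melanoma cell lines, COLO858 and MMACSF, and all 7 were found in both tables. Each line was grown in DMSO, the solvent, or in 0.2 μM vemurafenib for 24 or 48 h, with 2 replicate plates of each, giving 3 groups and 6 libraries per line and 12 libraries in all. The labels name no time for the DMSO plates, and plates were washed once and lysed in the dish, so that each value is a sum over all cells still attached. Both lines are single established cultures that carry an activating BRAF mutation in every group, DMSO included, so that no group stands for melanoma with normal BRAF.

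In this pathway a growth factor receptor loads RAS with GTP, RAS recruits and activates RAF, RAF phosphorylates MEK, and MEK phosphorylates ERK, which then acts on cytoplasmic proteins and on transcription. Mutant BRAF signals without RAS, and vemurafenib binds the active kinase and shuts off ERK signaling in such cells, which also removes the negative feedback that ERK places on RAS. The pathway is controlled mainly through phosphorylation and GTP binding of proteins already present, and an RNA level says nothing about either.

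Levels are given as FPKM, read counts scaled by transcript length and by library size, as the authors computed them for each library. How library size was set is not given in the sources used here. Per transcript length, the genes could be ranked within a library, although the transcript lengths behind the values are not given in the sources used here. The levels of each line came in a separate table, and no level was tested between lines. Of the melanocyte lineage genes, PMEL lay at 63.3 to 534 FPKM in COLO858 and at 7940 to 11738 in MMACSF, SOX10 at 160 to 453 and 208 to 407. MLANA and TYR, however, were at or below 1.21 FPKM in every COLO858 library, and none of the 8 markers of keratinocytes, epithelium, leukocytes and endothelium averaged 1 FPKM in any group (highest single value 0.448 FPKM, KRT14).

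The genes differ widely in base composition, which is used for a shift between replicates described later. GC content of the GENCODE canonical transcript on GRCh37 (the same assembly as the hg19 build used for mapping) was lowest in NRAS at 37.4% and BRAF at 41.1%, followed by MAP2K1 at 51.2%, ARAF at 59% and MAPK3 at 61%, and highest in HRAS at 64.3% and MAP2K2 at 65.4%. At the third base of codons, where many changes leave the protein as it is, it ran from 41.4% in BRAF and 46% in NRAS to 81.5% in HRAS, 82.1% in MAPK3 and 83.8% in MAP2K2. NRAS and HRAS encode proteins of the same length, 189 residues.

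All 7 genes were expressed in both lines under DMSO, over a wide range of levels. In COLO858 the order of mean FPKM was MAP2K2 (144 ± 49.5, SD, n = 2 as for all group means below), HRAS (82.1 ± 22.8), MAPK3 (63.8 ± 16.3), MAP2K1 (31.9 ± 0.0911), ARAF (31.1 ± 4.84), NRAS (26.1 ± 7.37) and BRAF (7.97 ± 1.40). In MMACSF it was MAP2K2 (78.8 ± 29.0), HRAS (48.4 ± 9.89), MAPK3 (36.6 ± 6.10), MAP2K1 (21.5 ± 1.58), NRAS (19.1 ± 5.44), ARAF (15.3 ± 2.51) and BRAF (3.40 ± 0.148). MAP2K2 was the highest and BRAF the lowest in every group of both lines, with no overlap of their libraries with those of the neighboring gene. The libraries of HRAS and MAPK3 overlapped in COLO858, as did those of MAP2K1, ARAF and NRAS in turn, so those neighbors were not separated beyond their spread. In MMACSF only MAP2K1, NRAS and ARAF overlapped in turn.

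**Figure D1:**
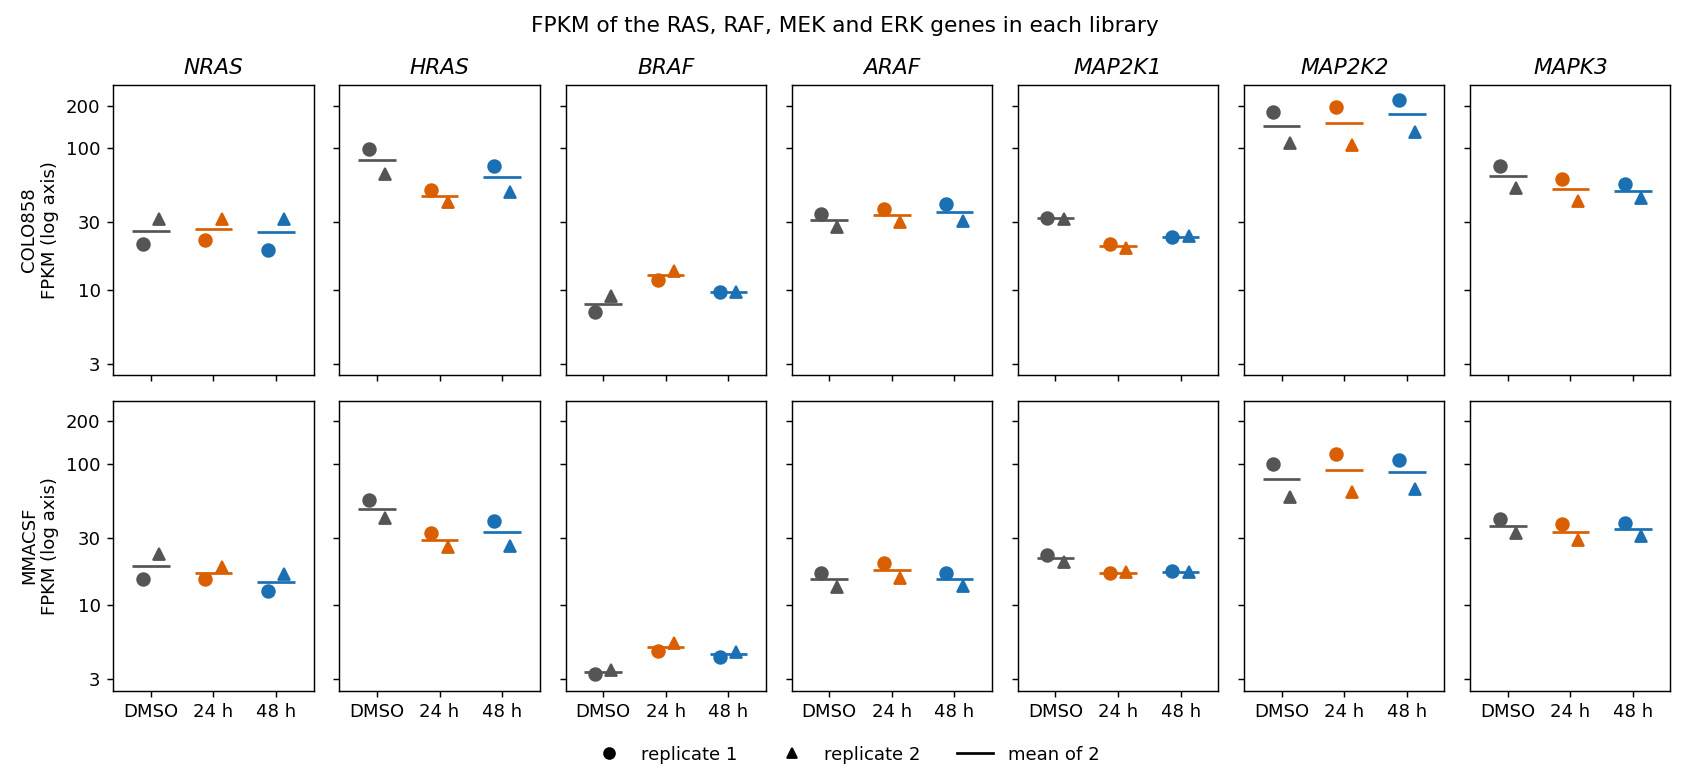
FPKM on a log axis of each gene (columns) in COLO858 (top) and MMACSF (bottom), for DMSO and for 24 and 48 h in 0.2 μM vemurafenib; circles are replicate 1, triangles replicate 2 and bars the mean of 2 libraries. BRAF lay higher and MAP2K1 lower in each vemurafenib library than in both DMSO libraries of its line, while circles stand above triangles for HRAS, ARAF, MAP2K2 and MAPK3 and below them for NRAS in every group.

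The first question was whether blocking mutant BRAF for 1 or 2 days changed the RNA of the relay itself. Each time was compared with DMSO within a line by limma on log2(FPKM + 1), with p-values adjusted over all genes tested by the Benjamini-Hochberg method and a threshold of 0.01. All 7 genes passed the filter, which kept genes averaging 1 FPKM or more in any group. In COLO858, 0 of 7 passed the test at 24 h and 0 of 7 at 48 h, where 9.82% and 9.47% of 12696 genes did. In MMACSF the count was likewise 0 of 7 at each time, against 5.83% and 8.83% of 12599 genes. At an unadjusted p under 0.05 the counts were 3 of 7 at 24 h in COLO858 (all genes, 40.3%), 1 of 7 at 48 h (39.3%), 3 of 7 at 24 h in MMACSF (36%) and 0 of 7 at 48 h (38.9%). Libraries of the 2 groups did not overlap for 3, 2, 3 and 3 of the 7 genes in the same order, whereas this held for 63.1%, 61.3%, 59.8% and 64.5% of all genes. Each of these counts lay near or below the share over all genes, and the difference from that share was not tested. Their median absolute log2 fold change was 0.31 and 0.27 in COLO858 and 0.21 and 0.30 in MMACSF, beside 0.42, 0.41, 0.35 and 0.38 over all genes tested.

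NRAS, the RAS gene that is itself often mutated in melanoma, had nearly the same mean under drug as under DMSO in COLO858. Its FPKM there was 20.9 and 31.4 in DMSO, 22.3 and 31.8 at 24 h, and 19.2 and 31.6 at 48 h (replicate 1, then 2, here and below). MMACSF libraries gave 15.3 and 23.0, 15.4 and 18.8, and 12.6 and 16.7. The groups overlapped in both lines, and in COLO858 the replicates of a group differed by more than any pair of group means. The log2 fold change was 0.05 at 24 h (95% interval -0.79 to 0.90) and -0.06 at 48 h (-0.90 to 0.79) in COLO858, and -0.14 (-0.75 to 0.48) and -0.35 (-0.97 to 0.27) in MMACSF, with adjusted p by limma from 0.348 to 0.925. A p above the threshold with intervals this wide does not show that NRAS was unchanged.

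HRAS, which had a higher FPKM than NRAS in every library, was lower on average under vemurafenib. In COLO858 its FPKM was 98.2 and 66.0 in DMSO, 50.5 and 41.9 at 24 h, and 75.0 and 49.4 at 48 h. The MMACSF values were 55.4 and 41.4 in DMSO, 32.7 and 25.7 at 24 h, and 39.4 and 26.4 at 48 h. The 24 h libraries lay below both DMSO libraries in each line, the 48 h libraries did so in MMACSF, and in COLO858 the 48 h and DMSO libraries overlapped. The 24 h log2 fold change was -0.79 ± 0.29 (SE) in COLO858 (adjusted p by limma 0.09997) and -0.71 ± 0.25 in MMACSF (0.112). At 48 h it was -0.40 ± 0.29 (adjusted p 0.361) and -0.56 ± 0.25 (0.171). None passed the threshold.

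BRAF, the target of the drug, was the least abundant of the 7 and was higher on average under vemurafenib at both times. In COLO858 its FPKM was 6.98 and 8.96 in DMSO, 11.7 and 13.5 at 24 h, and 9.60 and 9.57 at 48 h. Under the same groups MMACSF had 3.30 and 3.51, 4.77 and 5.45, and 4.32 and 4.70. All 4 drug libraries of each line lay above both DMSO libraries, and both 24 h libraries lay above both 48 h libraries. The log2 fold change at 24 h was 0.61 ± 0.17 in COLO858 (adjusted p by limma 0.0545) and 0.47 ± 0.14 in MMACSF (0.0757). At 48 h it was 0.25 ± 0.17 (0.340) and 0.32 ± 0.14 (0.163), so none passed the threshold. The RNA of the mutant and of the normal allele was not separated in these tables.

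ARAF, the X-linked RAF kinase, showed no separation between groups. Its FPKM in COLO858 was 34.5 and 27.7 in DMSO, 37.2 and 30.2 at 24 h, and 40.4 and 30.8 at 48 h. For MMACSF the FPKM was 17.0 and 13.5, 20.0 and 15.6, and 16.9 and 13.7. The groups overlapped in all 4 comparisons with DMSO, with log2 fold changes from 0.01 to 0.21 and adjusted p by limma from 0.506 to 0.987. The interval in COLO858 at 24 h ran from -0.42 to 0.65.

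MAP2K1, which encodes MEK1, had the smallest standard error of the 7 genes in both lines and the lowest p-value in COLO858. In COLO858 its FPKM was 31.9 and 31.8 in DMSO, 21.1 and 19.7 at 24 h, and 23.5 and 24.0 at 48 h. MMACSF libraries gave 22.7 and 20.4, 17.0 and 17.2, and 17.6 and 17.1. All 4 drug libraries lay below both DMSO libraries in each line. The log2 fold change in COLO858 was -0.62 ± 0.12 at 24 h, with an adjusted p by limma of 0.0210, and -0.41 ± 0.12 at 48 h (0.0653). In MMACSF it was -0.32 ± 0.12 (0.123) and -0.30 ± 0.12 (0.131). The 24 h value in COLO858 was the only one of the 28 under 0.05 and did not reach 0.01.

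MAP2K2, which encodes MEK2, had the highest FPKM and the widest spread. In COLO858 it was 179 and 109 in DMSO, 195 and 106 at 24 h, and 221 and 129 at 48 h. The MMACSF values were 99.4 and 58.3, 117 and 63.7, and 108 and 67.0. Replicate 1 exceeded replicate 2 in each group by more than any 2 group means differed, and the groups overlapped in every comparison. COLO858 gave log2 fold changes of 0.04 at 24 h and 0.27 at 48 h, MMACSF of 0.18 and 0.16, and the interval in MMACSF at 24 h ran from -0.86 to 1.22, the widest of the 7 genes in that line.

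MAPK3, which encodes ERK1, had slightly lower means under drug, within the spread. In COLO858 its FPKM was 75.3 and 52.3 in DMSO, 60.1 and 42.1 at 24 h, and 55.6 and 44.7 at 48 h. Under the same groups MMACSF had 40.9 and 32.3, 37.5 and 28.8, and 38.0 and 31.0. The groups overlapped in all 4 comparisons. The log2 fold change ranged from -0.33 in COLO858 at 48 h to -0.08 (-0.59 to 0.42) in MMACSF at 48 h, with adjusted p by limma from 0.419 to 0.799.

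**Figure D2:**
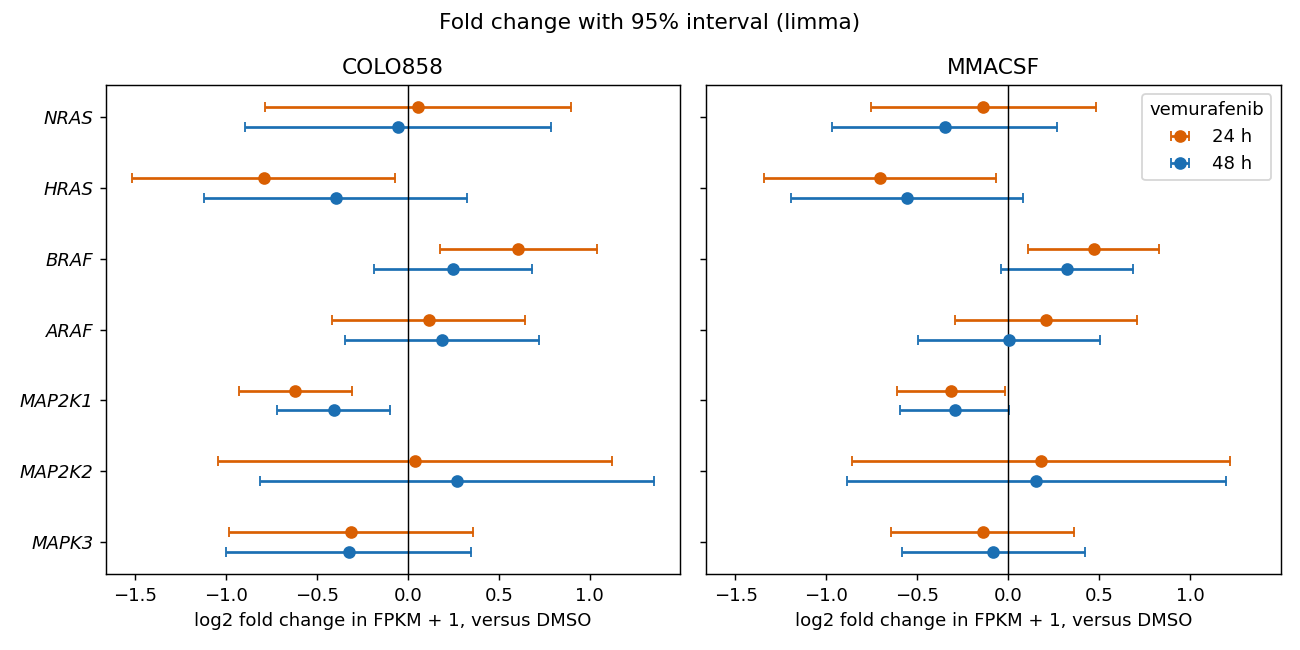
Log2 fold change of FPKM + 1 against DMSO (points) with 95% intervals (bars) from limma, for each gene at 24 h and 48 h in COLO858 (left) and MMACSF (right). At 24 h the intervals of BRAF, HRAS and MAP2K1 exclude 0 in both lines, BRAF above and the other two below, before adjustment over all genes; those of MAP2K2 are the widest.

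COLO858 and MMACSF shared the direction of the mean change for BRAF, HRAS, MAP2K1, MAPK3, ARAF and MAP2K2 at both times. For ARAF in MMACSF at 48 h (0.01) and MAP2K2 in COLO858 at 24 h (0.04) the change was near 0. The sign of both changed with another scaling, given at the end. The difference in response between the lines, COLO858 minus MMACSF in a fit of all 12 libraries, passed the threshold for 0 of 7 genes at 24 h and 0 of 7 at 48 h, where 3.71% and 7.48% of 13595 genes passed in limma. At an unadjusted p under 0.05 the counts were 0 and 0, against 21.2% and 27.5% of genes. The largest difference at 24 h was that of MAP2K1, -0.30 (-0.61 to 0.00, adjusted p 0.238), followed by NRAS at 0.19 (-0.85 to 1.23). From 24 to 48 h, 0 of 7 genes passed in COLO858, where 1.38% of genes did, and 0 of 7 in MMACSF, where 0.222% did. At an unadjusted p under 0.05 both counts were again 0, beside 20.1% and 6.98% of genes.

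Genes of one tier can be compared within a library without regard to how the library was scaled. The genes of each pair differ in GC content, so their ratio still carries the shift between replicates described below. In COLO858 under DMSO the NRAS to HRAS ratio was 0.213 in replicate 1 and 0.475 in replicate 2. No ratio was computed after removal of a GC trend. HRAS exceeded NRAS by a factor of 1.32 to 4.69 in the 12 libraries, ARAF exceeded BRAF by 2.23 to 5.17, and MAP2K2 exceeded MAP2K1 by 2.85 to 9.38. The NRAS to HRAS ratio was higher under drug by 0.50 on the log2 scale (times pooled, lines averaged; exact two-sided permutation within lines, p = 0.218, adjusted over the 3 ratios 0.218). The BRAF to ARAF ratio was higher by 0.35 (exact permutation p = 0.160, adjusted 0.218), and the MAP2K1 to MAP2K2 ratio was lower, with a difference of -0.59 (exact permutation p = 0.0711, adjusted 0.213). The smallest p this design allows without a block is 0.00444. A replicate block allows fewer arrangements, so its smallest possible p is higher. None of the 3 differences passed the threshold of 0.05, whereas all 3 did with the replicate number as a block (adjusted exact permutation p 0.04938, 0.04938 and 0.03704). For MAP2K1 to MAP2K2 the replicate 1 ratio was 0.178 in DMSO and 0.109 and 0.107 under drug in COLO858, and replicate 2 gave 0.291, 0.186 and 0.185. In MMACSF replicate 1 gave 0.228, 0.145 and 0.164, and replicate 2 gave 0.350, 0.270 and 0.256.

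The replicates of each group differed in a way that followed base composition. Replicate 2 minus replicate 1, in log2(FPKM + 1), ran against transcript GC content over genes, with Spearman's rho of -0.865, -0.781 and -0.806 in COLO858 (DMSO, 24 h and 48 h, 11858 genes) and -0.789, -0.661 and -0.709 in MMACSF (11753 genes). These are descriptions across genes of the same libraries. Among the 7 genes, NRAS was higher in replicate 2 by 0.27 to 0.69 in all 6 groups, whereas MAP2K2 was lower by 0.67 to 0.87, HRAS by 0.26 to 0.59, MAPK3 by 0.29 to 0.52 and ARAF by 0.28 to 0.38. MAP2K1 differed by -0.14 to 0.03 and BRAF by 0.00 to 0.32 in size. The standard errors above were larger for NRAS, HRAS, MAPK3 and MAP2K2 than for MAP2K1 and BRAF. A GC trend was then removed from each library, an alternative chosen after seeing the data. The standard error in COLO858 at 24 h became 0.12 for HRAS and 0.11 for NRAS, in place of 0.29 and 0.33. HRAS and MAP2K1 passed the test there, where 37.5% of all genes did. With the replicate number as a block, BRAF, HRAS and MAP2K1 passed in COLO858 at 24 h and MAP2K1 at 48 h. There 45% and 43.7% of all genes passed. HRAS passed at both times in MMACSF, beside 26.1% and 30.1% of all genes. Each of these counts lay near or below the share over all genes, and the difference was not tested. The absence of calls among the 7 genes thus depended on how the difference between replicates was treated, as did the share called over all genes.

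**Figure D3:**
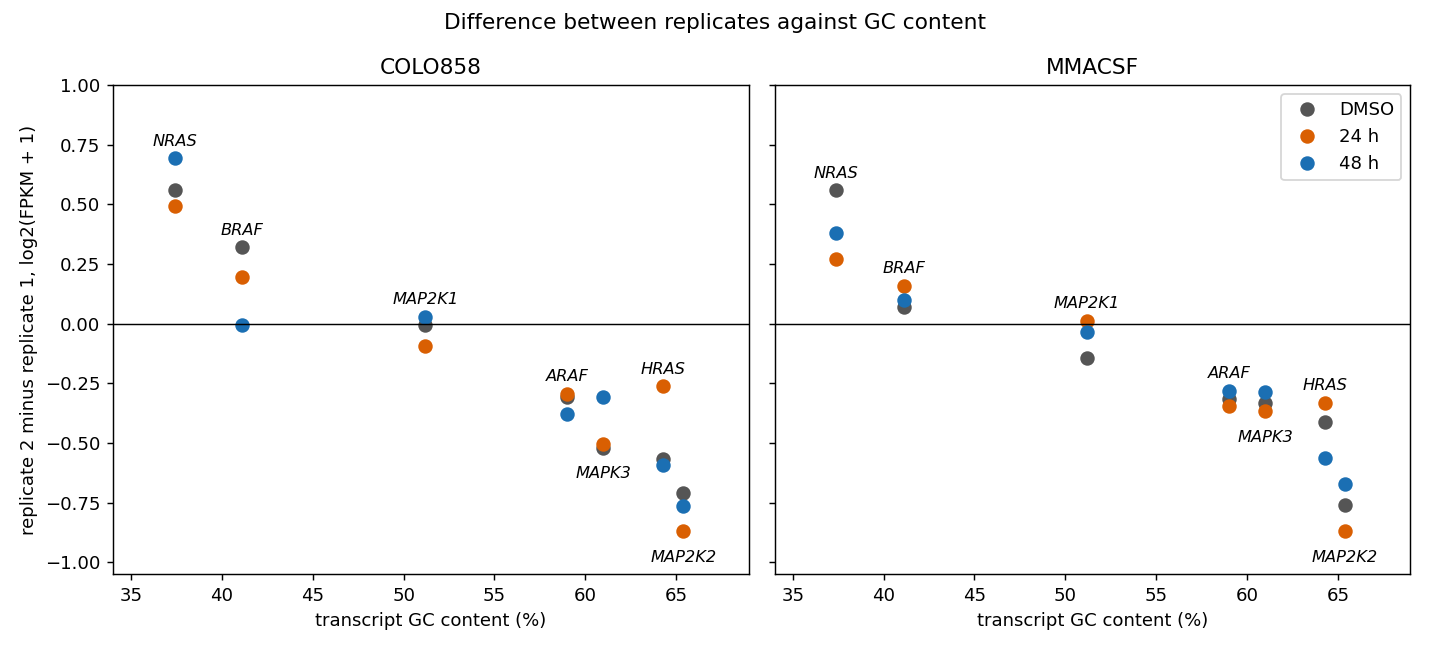
Replicate 2 minus replicate 1 in log2(FPKM + 1) against GC content (%) of the reference transcript for the 7 genes in COLO858 (left) and MMACSF (right), one point per group. NRAS, the GC-poorest at 37.4%, lies above 0 and MAP2K2, the GC-richest at 65.4%, lies lowest in every group.

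RAS-related GTPases outside the 7 did not pass the test either. Of MRAS, RRAS, RRAS2 and RIT1, 0 of 4 passed in any comparison with DMSO, and 2, 1, 0 and 0 had an unadjusted p under 0.05 by limma (COLO858 at 24 and 48 h, then MMACSF). Over all genes this held for 40.3%, 39.3%, 36% and 38.9%. RIT1, a RAS-related GTPase, came closest: its FPKM in COLO858 was 4.28 and 5.81 in DMSO, 10.4 and 15.3 at 24 h, and 11.6 and 16.0 at 48 h. Its log2 fold change there was 1.19 ± 0.27 (adjusted p by limma 0.0299) and 1.29 ± 0.27 (0.0246), and in MMACSF 0.51 and 0.47 (0.155 and 0.169). RRAS was 31.8 and 20.2 in DMSO, 16.4 and 11.2 at 24 h and 48.7 and 33.7 at 48 h in COLO858, with log2 fold changes of -0.85 and 0.66 (adjusted p 0.109 and 0.193). The log2 fold change of MRAS ranged from -0.40 to 0.33 and that of RRAS2 from -0.64 to -0.22.

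Of 13 genes for RAS activators and adaptors, 9 were tested in each line. Of these 1 rose, in COLO858 at 48 h, where 9.47% of all genes passed. None passed in COLO858 at 24 h (9.82% of all genes) or in MMACSF at either time (5.83% and 8.83%). At an unadjusted p under 0.05 there were 3 and 6 of 9 in COLO858 (24 and 48 h) and 2 and 3 of 9 in MMACSF. Over all genes this held for 40.3% and 39.3% in COLO858 and for 36% and 38.9% in MMACSF. The gene that rose in COLO858 was GAB1, a docking protein of receptor tyrosine kinases, at 0.893 and 1.34 FPKM in DMSO and 4.74 and 6.19 at 48 h. Its log2 fold change was 1.61 ± 0.22 (adjusted p by limma 0.00743). GAB1 was also higher in COLO858 at 24 h, at 3.34 and 4.55 FPKM. In MMACSF its mean was 2.11 FPKM in DMSO, 4.51 at 24 h and 4.85 at 48 h. These other changes did not pass the threshold. None of the 6 RAS GTPase-activating proteins tested and none of the 13 (COLO858) or 12 (MMACSF) scaffolds and RAF regulators tested passed. Counts at an unadjusted p under 0.05 over the 4 comparisons were 3, 2, 0 and 0 for the GTPase-activating proteins and 1, 2, 2 and 3 for the scaffolds. The shares over all genes, at both thresholds, are those given above for the activators. Of the kinases of other MAPK cascades, 0 of 12 passed in COLO858 at either time. At an unadjusted p under 0.05 there were 2 and 3 of 12, beside 40.3% and 39.3% of all genes. In MMACSF, 1 of 11 fell at 24 h, and at 48 h 1 fell and 1 rose, where 5.83% and 8.83% of all genes passed. MAP2K3, a kinase of the p38 cascade, was 32.3 and 27.0 FPKM in DMSO, 11.3 and 8.79 at 24 h and 10.8 and 9.15 at 48 h (log2 fold change -1.48 at both times, adjusted p 0.00708 and 0.00563). MAP2K5, the kinase upstream of ERK5, was 10.5 and 11.2 FPKM in DMSO and 19.9 and 20.5 at 48 h (0.84 ± 0.12, adjusted p 0.00788).

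Genes that ERK signaling is known to induce fell in both lines. Of 19 such target and feedback genes, 11 of 18 tested fell at 24 h and 13 of 18 at 48 h in COLO858, where 5.71% and 4.73% of all genes fell. In MMACSF 13 of 17 fell at 24 h and 14 of 17 at 48 h, beside 3.6% and 5.41% of all genes, and none rose in either line. Their median log2 fold change among those tested was -2.01 at 24 h and -1.72 at 48 h in COLO858, then -1.70 and -1.80 in MMACSF, beside 0.06, -0.01, 0.07 and 0.06 over all genes. ETV4, an ETS transcription factor, was 196 and 150 FPKM in COLO858 under DMSO, 4.86 and 4.06 at 24 h and 2.99 and 2.38 at 48 h (log2 fold change -4.98 ± 0.20 and -5.55 ± 0.20). SPRY4, an inhibitor of receptor signaling to RAS, was 271 and 277 FPKM in DMSO, 8.58 and 8.92 at 24 h and 8.34 and 8.12 at 48 h. FOSL1, an AP-1 factor, was 55.2 and 46.7 FPKM in MMACSF under DMSO, 2.78 and 2.35 at 24 h and 3.49 and 3.10 at 48 h. EGR1, an immediate-early transcription factor, was 15.7 and 14.4 FPKM in COLO858 under DMSO and 0.744 and 0.584 at 24 h. For these 4 genes every drug library lay below both DMSO libraries in each line, with adjusted p by limma from 0.000137 to 0.00441. IER3 was listed at 0 in all 12 libraries.

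**Figure D4:**
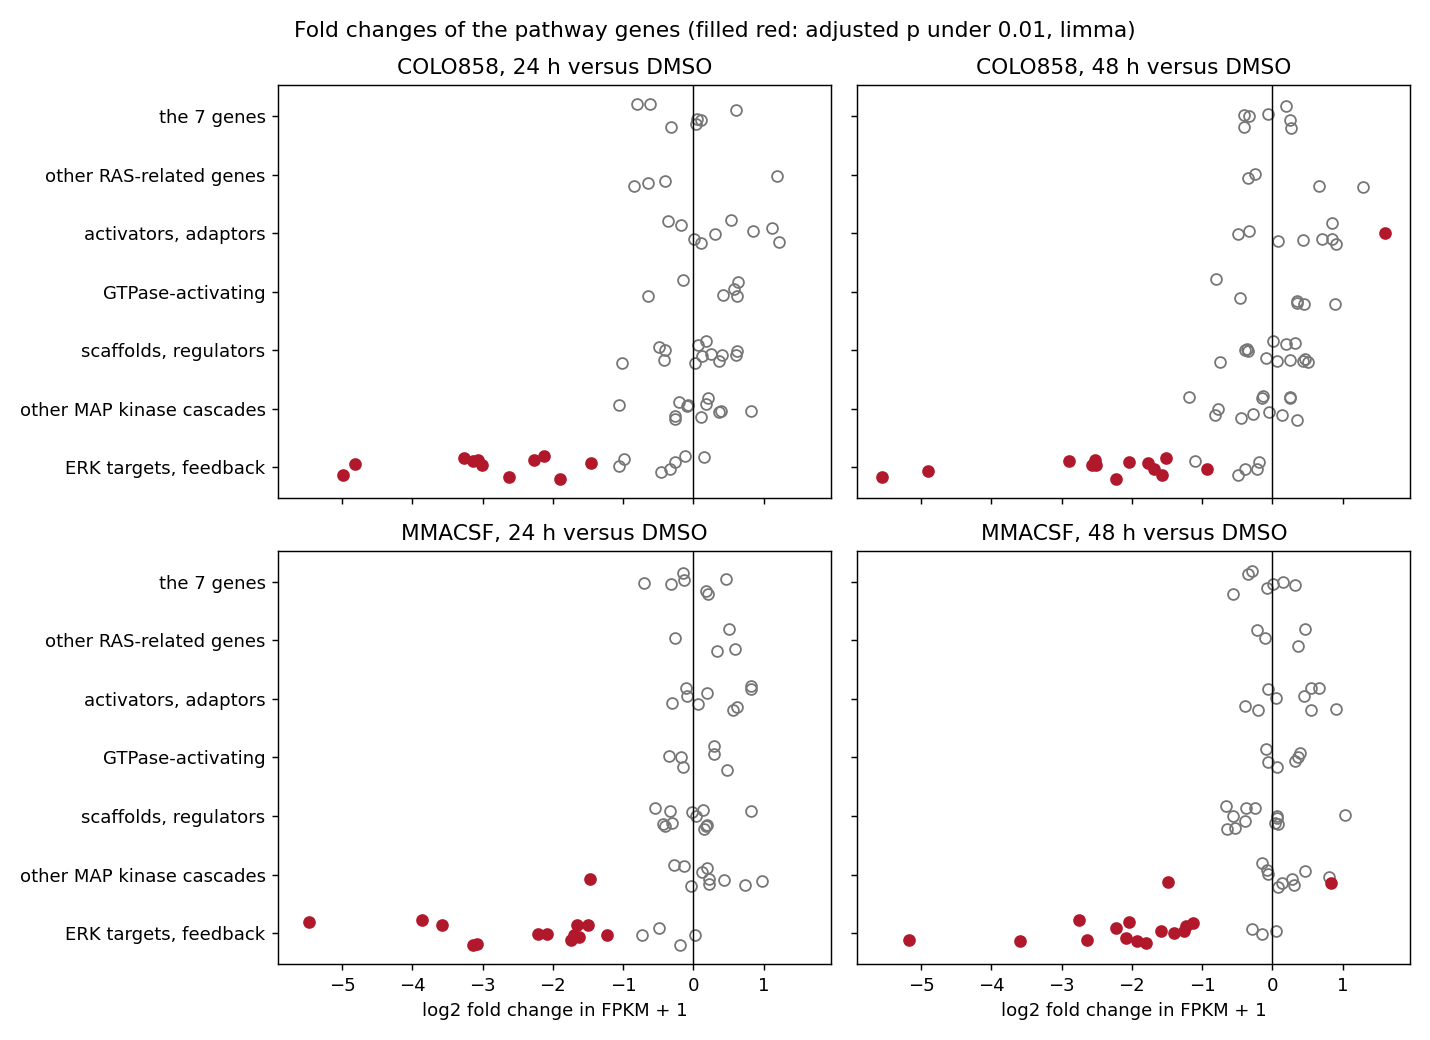
Log2 fold change of FPKM + 1 against DMSO for single genes (points) of 7 lists, at 24 h and 48 h in COLO858 (top) and MMACSF (bottom); filled red points have an adjusted p under 0.01 by limma. The 7 relay genes lie between -0.79 and 0.61 with no filled point, while 11 to 14 of the ERK target and feedback genes are filled, all below 0.

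Over the 12 libraries, each line centered on its own mean, the genes most like each member were found by Pearson's r of log2(FPKM + 1) among 11700 genes tested in both lines. For MAP2K1 they were LIF, a cytokine (r = 0.991), and POLD2, a DNA polymerase delta subunit (0.980). For BRAF they were TBCEL (0.980) and GPR155 (0.973), for HRAS DPF1 (0.973) and U2AF1 (0.966), for NRAS TOR1AIP2 (0.985) and HIAT1 (0.984), for ARAF NUCB1 (0.960) and MOSPD3 (0.943), for MAP2K2 C1orf122 (0.985) and AP2A1 (0.984), and for MAPK3 SARS2 (0.974) and CSNK1G2 (0.971). Within the 7, BRAF ran opposite to HRAS (r = -0.901) and MAP2K1 (-0.899), and ARAF ran with MAP2K2 (0.933) and both ran against NRAS (-0.788 and -0.907). The points share libraries and the replicate shift with GC content, and the coefficients are descriptions only.

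The 7 genes lie on different chromosomes, and some share ground with other genes. By the GENCODE annotation on GRCh37, NRAS spans chr1:115247090-115259392 (minus strand), HRAS chr11:532242-537321 (minus), BRAF chr7:140419127-140624729 (minus), ARAF chrX:47420604-47431307 (plus), MAP2K1 chr15:66679175-66783994 (plus), MAP2K2 chr19:4090319-4124119 (minus) and MAPK3 chr16:30125426-30134827 (minus). Exons of MAP2K1 overlap the span of SNAPC5 on the opposite strand, which was at 20.5 to 34.1 FPKM. Exons of ARAF overlap the span of SYN1, which was at 0 to 0.154 FPKM. Whether exons of SNAPC5 or SYN1 are touched was not examined. The libraries were stranded, but whether strand was used in counting is not given in the sources used here, nor is the handling of reads shared with processed pseudogenes, so the values of MAP2K1 and of genes with pseudogene copies carry that uncertainty. Exons of BRAF, HRAS, ARAF and MAP2K1 also touch long noncoding RNA genes on the opposite strand in this annotation, and the same uncertainty applies to them. The span of NDUFB2, a gene at 185 to 678 FPKM, overlaps that of BRAF but touches no exon of the canonical BRAF transcript.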

How the data were processed

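Messenger RNA of 12 cultures was sequenced as single reads of 50 bases from stranded libraries. The authors mapped reads to hg19 with TopHat and computed FPKM per gene and library with Cuffdiff, and deposited 1 FPKM table per line; versions, gene annotation and library scaling are not given in the sources used here. Low values showed no steps of whole reads, so sequencing depth is unknown; summed FPKM per library was 670310 to 1013038 and 11679 to 11972 genes reached 1 FPKM.

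Columns were assigned by title. Genes averaging 1 FPKM or more in any group were tested on log2(FPKM + 1) with limma 3.58.1 (R 4.3.3; group means, empirical Bayes with trend, two-sided, Benjamini-Hochberg over all genes tested, threshold 0.01), using 6 libraries per line, or 12 for the line difference. A fold change on this scale understates the change of low genes. Replicates were separate plates of one line, so p-values measure the spread between plates. Ratios of 2 genes were compared by exact permutation (225 arrangements, threshold 0.05). All 7 genes were named, with up to 4 genes of each other list (the largest changes against DMSO among those past the threshold), the RAS-related genes, and the 2 genes most like each member. The members and lists were chosen with earlier results of these data known. GC content was that of the GENCODE v44 canonical transcript on GRCh37, matched by symbol, with synonyms from RefSeq, for 85.7% of genes (93.4% and 93.3% of those tested in COLO858 and MMACSF). Alternatives were another constant, another minimum, rescaling, no trend, the spread of the compared groups alone, a replicate term, each library left out and, added after seeing the data, removal of a GC trend from each library. The scripts were tested on simulated data. Some related genes and sequences are not reported here.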

Additional observations from a re-analysis of the deposited data

Results flagged for a closer look

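The response to vemurafenib differed between the lines, by the test of the difference itself (COLO858 minus MMACSF, limma), for 3 genes named outside the 7. SPRY4 fell more in COLO858, with a difference of -1.25 ± 0.14 (SE) on the log2 scale at 24 h (adjusted p 0.00164) and -2.14 ± 0.14 at 48 h (5.33e-05). The mean of SPRY4 was 274, 8.75 and 8.23 FPKM in COLO858 (DMSO, 24 h and 48 h) and 35.8, 2.10 and 4.45 in MMACSF. The constant of 1 FPKM shrinks a fall to such low values, more so in MMACSF, which enlarges the difference for SPRY4. FOSL1 fell more in MMACSF at 48 h, with a difference of 1.56 ± 0.21 (adjusted p 0.00188). MAP2K5 differed by -0.89 ± 0.14 at 48 h (adjusted p 0.00406), with log2 fold changes of -0.05 in COLO858 and 0.84 in MMACSF.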

How the results depend on the processing

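Group sizes of 2 and unknown depth limit all values. With a constant of 0.1 FPKM, no minimum, a minimum of 10 FPKM, median-ratio rescaling, no trend, the spread of the compared groups alone, or any library left out, 0 members passed in each of the 8 comparisons (BRAF in MMACSF has no value at a minimum of 10 FPKM). Same-numbered replicates deviated together (Pearson's r 0.196 to 0.211 in COLO858 and 0.0628 to 0.113 in MMACSF; Spearman's rho 0.726 to 0.792 and 0.614 to 0.691), but the numbers share no stated batch. With a replicate block, 3 members passed in COLO858 at 24 h (BRAF, HRAS and MAP2K1, adjusted p 0.00672, 0.00336 and 0.00129), 1 at 48 h (MAP2K1), and 1 at each time in MMACSF (HRAS), while the share of all genes called went to 45%, 43.7%, 26.1% and 30.1%. The ratios' adjusted exact permutation p with the block was 0.04938 for NRAS to HRAS (0.50), 0.04938 for BRAF to ARAF (0.35) and 0.03704 for MAP2K1 to MAP2K2 (-0.59). With a GC trend removed from each library, chosen after seeing the data, 2 members passed in COLO858 at 24 h (HRAS and MAP2K1), 1 at 48 h (MAP2K1), and 1 at each time in MMACSF (HRAS). The share of all genes called was then 37.5%, 38.1%, 22.9% and 27.2%. With the GC removal and the replicate block together the counts were 1 (MAP2K1) and 2 (MAP2K1 and MAP2K2) in COLO858, 1 (MAP2K1) at 24 h in MMACSF, and 2 (ARAF and MAP2K2) for the line difference at 48 h. In these comparisons 45.6%, 46%, 28.4% and 27.4% of all genes were called. The causes were not tested. The number of all genes called moved with several settings. With the spread of the compared groups alone it went from 1247 to 477 and 1202 to 380 in COLO858 and from 734 to 59 and 1113 to 364 in MMACSF (24 and 48 h), with the block it went to 5719, 5549, 3284 and 3790, with GC removal to 4756, 4839, 2887 and 3433, and with both to 5791, 5846, 3572 and 4170. Leaving out 1 library gave 114 to 548, 137 to 383, 58 to 100 and 114 to 430, with the lowest counts where the library belonged to a compared group, so that this group held 1 sample assumed to vary like the others. From 24 to 48 h in COLO858 it went from 175 to 86 with no minimum, 281 with rescaling, 13 with the spread of the compared groups alone and 2280 with the block, and in MMACSF from 28 to 14 with that spread. For the line difference at 24 h it went from 505 to 336 with a constant of 0.1 FPKM, 275 with a minimum of 10 FPKM and 208 with that spread, and for the one at 48 h from 1017 to 666; the block gave 2396 and 3434, and leaving out 1 library 212 to 399 and 558 to 896. Leaving out 1 library gave 18 to 43 from 24 to 48 h in COLO858 and 15 to 46 in MMACSF. GC removal gave 1590 and 64 there and 1704 and 2611 for the line differences, and with the block added 2364, 48, 2673 and 3728.

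Log2 fold changes of members that did not pass the test changed sign in places. Rescaling gave -2.7e-05 for NRAS and -0.019 for MAP2K2 in COLO858 at 24 h, 0.060 for MAPK3 from 24 to 48 h in COLO858, and -0.041 for ARAF in MMACSF at 48 h. GC removal, with or without the block, gave -0.067 for NRAS in COLO858 at 24 h and 0.0091 from 24 to 48 h, -0.11 for ARAF and -0.061 for MAP2K2 in MMACSF at 48 h, -0.032 for MAPK3 from 24 to 48 h in MMACSF, and line differences at 24 h of 0.12 for HRAS and 0.10 for MAP2K2. Leaving out each library in turn, the log2 fold change ranged in COLO858 at 24 h from -0.23 to 0.33 for NRAS, -0.040 to 0.27 for ARAF and -0.40 to 0.47 for MAP2K2. In COLO858 at 48 h the range was -0.40 to 0.29 for NRAS, -0.11 to 0.65 for MAP2K2 and -0.0028 to 0.38 for ARAF. In COLO858 from 24 to 48 h the range was -0.26 to 0.24 for MAPK3, -0.12 to 0.26 for ARAF, -0.46 to 0.24 for NRAS and -0.20 to 0.67 for MAP2K2. In MMACSF at 24 h the range was -0.32 to 0.043 for MAPK3, -0.41 to 0.14 for NRAS and -0.25 to 0.61 for MAP2K2. In MMACSF at 48 h the range was -0.25 to 0.085 for MAPK3, -0.15 to 0.16 for ARAF and -0.22 to 0.53 for MAP2K2. In MMACSF from 24 to 48 h the range was -0.46 to 0.41 for MAP2K2, -0.13 to 0.43 for HRAS and -0.12 to 0.24 for MAPK3. For the line difference at 24 h the range was -0.024 to 0.30 for BRAF, -0.27 to 0.081 for ARAF, -0.091 to 0.47 for NRAS, -0.37 to 0.19 for HRAS, -0.58 to 0.29 for MAP2K2 and -0.43 to 0.086 for MAPK3. For the line difference at 48 h the range was -0.51 to 0.014 for MAPK3, -0.24 to 0.085 for BRAF, -0.14 to 0.46 for HRAS, -0.27 to 0.50 for MAP2K2, -0.0094 to 0.37 for ARAF and -0.053 to 0.64 for NRAS. Leaving out a library thus changed the sign of 31 results, and none of them passed the threshold in the main fit. With GC removal and the block together, MAP2K2 in COLO858 at 48 h passed. So did the line differences of ARAF and MAP2K2 at 48 h.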
